A study of Mus musculus with 10 samples.

Results

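The 9 genes described here are the complement components and receptors of small intestinal lamina propria macrophages: C1qa, C1qb and C1qc, C3, C4b, Cfb, Cfp, C3ar1 and C5ar1. They were taken by gene symbol from a table of 17279 genes, and each symbol had 1 entry. The rule itself is a list of symbols. At 24 h after pMCAO none of the 8 genes tested passed the test against sham, and Cfb was too low in counts to be tested. C3 had the lowest unadjusted p with a lower mean in the pMCAO group. The C1q genes had nearly equal means in both groups over all libraries.

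Complement is a cascade of proteins that marks microbes and dying cells for uptake and calls in immune cells. C1q recognises antibody complexes and cell debris and starts the classical route, C4 and C3 are then cleaved and deposited on the target, factor B and properdin drive the alternative route that amplifies the deposit, and the small fragments released from C3 and C5 act on cells through the receptors C3aR and C5aR1. Tissue macrophages are a known source of C1q, whereas most circulating C3, C4 and factor B is made by the liver.

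RNA was sequenced from lamina propria macrophages of C57BL6/J mice that had undergone sham surgery or pMCAO, a stroke model in which the middle cerebral artery is permanently closed, 24 h before collection. Each group had 5 libraries, labelled as biological replicates, and replicate 1 of each group carries a name that marks it as a pool. The mucosa was peeled from the whole small intestine and cells were sorted for GFP driven from the Cx3cr1 locus, so all libraries share this reporter, which other mononuclear phagocytes can carry too. Ages were not given in the sources used here.

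Total counts were between 18894151 and 60665972 in the sham libraries and between 6430643 and 28672285 in the pMCAO libraries. In pMCAO 1, 3 and 4 they were 6430643 to 11605371, below every sham library, so weakly expressed genes were counted less precisely there. Those of pMCAO 2 and 5 were above sham 4. Sham 5 and pMCAO 4 stood apart in Xist, the RNA of the inactive X chromosome, with 1756 and 4461 CPM (counts divided by the library's total and scaled to a common size) against 1.39 to 4.92 in the other 8 libraries, and the members' fold changes are given with and without both where that moved them. All 9 macrophage markers were detected in every library, with a summed level of 6494 to 12840 CPM in the sham and 6607 to 12430 CPM in the pMCAO group. Markers of other cells were also present, and the mast cell markers had a summed level of 2158 to 20460 CPM in the sham and 457 to 6723 CPM in the pMCAO group. The B and plasma cell markers had a summed level of 842 to 25040 CPM in the sham and 1149 to 27700 CPM in the pMCAO group. Jchain made up 95.6% of that sum, and Cd79a and Ms4a1 were at 0 in pMCAO 3. In sham 2 and in pMCAO 1, 2 and 5 the B and plasma cell sum was above the macrophage sum. In such bulk samples, fewer cells of a type and less RNA per cell cannot be told apart.

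The C1q genes lie side by side on the minus strand of chromosome 4 in the mouse build GRCm38, with C1qb (ENSMUSG00000036905) at chr4:136880129-136886187, C1qc (ENSMUSG00000036896) at chr4:136889804-136893065 and C1qa (ENSMUSG00000036887) at chr4:136895917-136898803. Sequence upstream of C1qb and C1qc is shown because these genes had the highest Pearson's r across libraries of any pair of members, and that of C3 because its levels followed none of the others. The sequences are from RefSeq (GRCm38.p6), run 5′ to 3′ on the gene's strand, and leave out annotated exons. Capitals mark a match to the letters GAGGAA of the PU.1 core, which reads TTCCTC on the other strand, or to TTGCNNAA of the C/EBP core. PU.1 and C/EBP are transcription factors of myeloid cells.
C1qb (chr4:136886201-136886450, the 250 bases before the start): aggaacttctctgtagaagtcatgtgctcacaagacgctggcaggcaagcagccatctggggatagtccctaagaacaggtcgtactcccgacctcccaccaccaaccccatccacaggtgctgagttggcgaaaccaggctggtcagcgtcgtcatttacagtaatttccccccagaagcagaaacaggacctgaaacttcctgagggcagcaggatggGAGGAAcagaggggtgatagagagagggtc
C1qc (chr4:136893066-136893164, 99 bases from position -250 to -152): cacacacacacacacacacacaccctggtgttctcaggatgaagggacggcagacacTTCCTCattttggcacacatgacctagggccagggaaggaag
C3 (chr17:57228137-57228386, the 250 bases before the start): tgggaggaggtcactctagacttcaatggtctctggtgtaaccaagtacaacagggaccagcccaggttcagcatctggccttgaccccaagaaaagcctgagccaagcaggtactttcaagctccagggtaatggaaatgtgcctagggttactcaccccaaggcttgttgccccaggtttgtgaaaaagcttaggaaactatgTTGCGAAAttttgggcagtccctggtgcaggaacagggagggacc

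Both strands of the 300 bases from 250 before to 50 after each start were searched, and overlapping matches of the motifs were not excluded. The PU.1 letters were found once for C1qb, beginning at position -30, once for C1qc, at -193, and at 2 positions after the start of Cfp. They occurred in 28.3% of 32851 promoters of the same length. The C/EBP letters occurred in C3 at position -45 and in 10.8% of these promoters. C3ar1 and C5ar1 held neither, and C1qa, C4b and Cfb have no entry in the promoter table used. A match is a run of letters and not evidence of binding.

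Levels between genes were compared per kilobase of exon, as the mean CPM per kb over the 10 libraries. C1qb stood at 1891 CPM per kb, which placed it 31st of 16864 genes. C1qc followed at 581 and C1qa at 335 CPM per kb, and this order of the C1q genes held in 10 of 10 libraries. C3ar1 (94.8 CPM per kb) and Cfp (83.5) could not be ordered, since each was the higher one in 5 of the 10 libraries. C5ar1 had 40.1 and C3 14.1 CPM per kb, with C5ar1 higher in 9 of 10 libraries. C4b (2.17 CPM per kb) and Cfb (0.150 CPM per kb) were the lowest of the 9 genes. Among the genes of the classical route, those of the recognition protein C1q thus stood well above C3 and C4b per length.

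**Figure D1:**
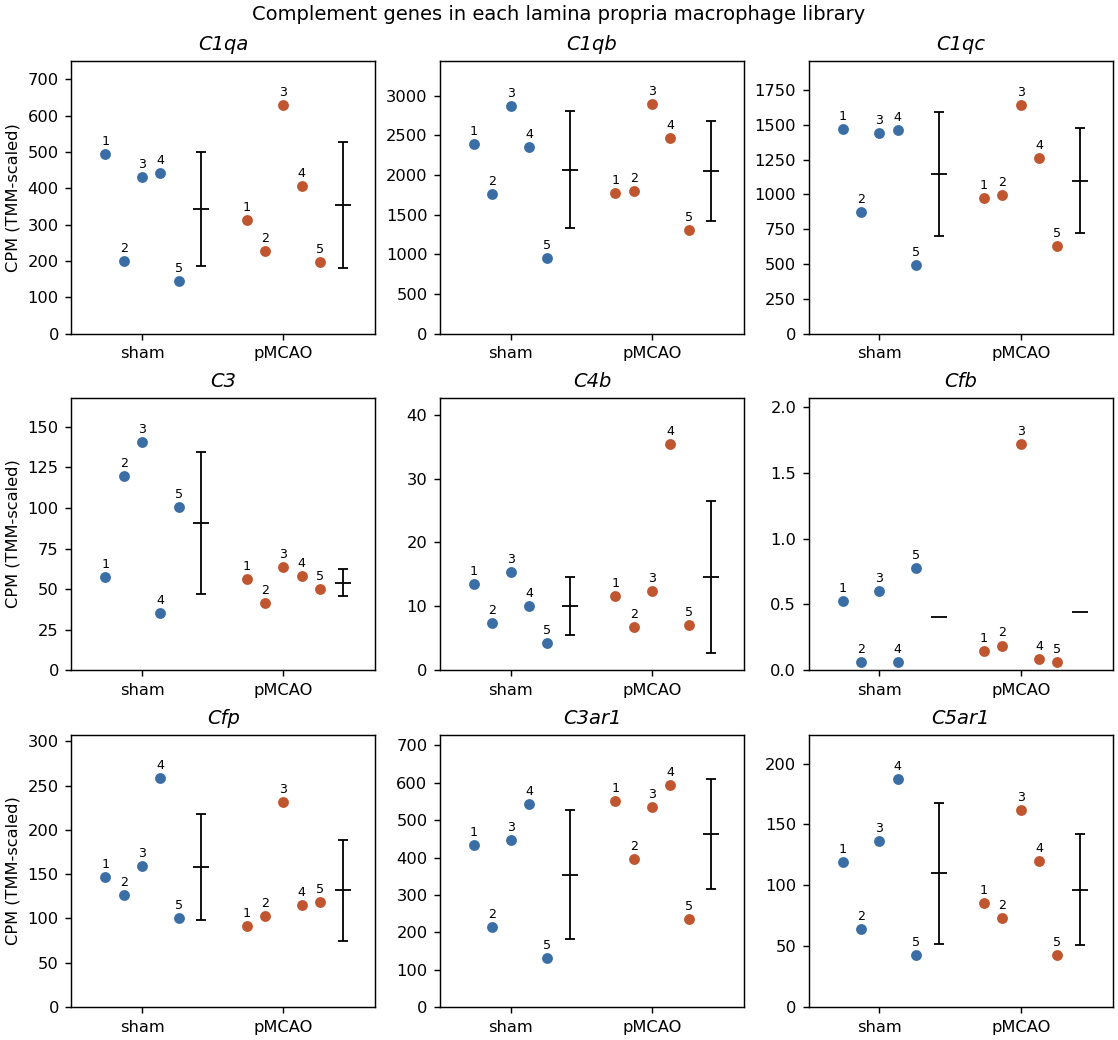
CPM (TMM-scaled) of the 9 complement genes in each sham and pMCAO library, with replicate numbers beside the points. The black marks are the group means with their SD (n = 5 per group, no SD for Cfb), and each y axis starts at 0. Points of both groups overlap in all 9 panels.

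The comparison of pMCAO with sham asked how stroke affected macrophage RNA in the gut. Across all 16949 genes tested, the edgeR quasi-likelihood test called 0 genes at an FDR of 0.05 or less, which is 0% of them, and the lowest FDR was 0.922. An unadjusted p under 0.05 was found for 799 genes, or 4.71%. Of the 9 complement genes, 8 passed the filter on low counts and Cfb did not. None of the 8 was called, 1 (C3) had an unadjusted p under 0.05, 3 had a higher and 5 a lower mean on the log2 scale, and their median log2 fold change was -0.04, against -0.01 for all genes. The CPM values of the 2 groups overlapped for each of the 8, where 0.985% of all genes tested had groups that did not overlap. P-values weigh the difference between groups against the spread between these libraries only, with information on spread shared across genes.

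**Figure D2:**
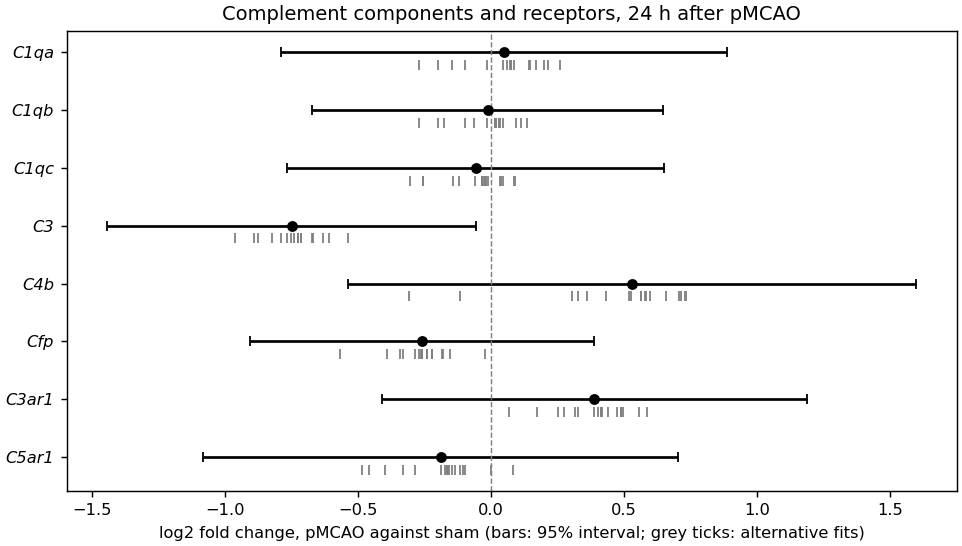
Log2 fold change of pMCAO against sham for the 8 complement genes tested (x axis, log2 scale), with 95% intervals as bars and the values under 18 alternative fits as grey ticks. The interval of C3 lies below 0, from -1.44 to -0.06, before adjustment for the number of genes, and the other 7 intervals include 0.

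C1q is assembled from A, B and C chains that are each encoded by their own gene. C1qa measured 493, 200.1, 430.2, 443 and 146 CPM in sham libraries 1 to 5 and 312, 227, 628, 406 and 196 CPM in pMCAO libraries 1 to 5. C1qb measured 2396, 1763, 2868, 2352 and 949 CPM in sham and 1774, 1799, 2891, 2469 and 1310.0 CPM in pMCAO. C1qc measured 1467, 870.0, 1437, 1461 and 489 CPM in sham and 971, 995, 1644, 1258 and 628 CPM in pMCAO. The same libraries were low for each of the genes, with sham 5 the lowest in every case and pMCAO 5 the second lowest, and the groups overlapped over most of their range.

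The means of C1qa were 342 ± 158 CPM in sham and 354 ± 174 CPM in pMCAO (SD, n = 5 each), with a log2 fold change of 0.05 (SE 0.39, 95% interval -0.79 to 0.89, edgeR FDR 0.994). Those of C1qb were 2066 ± 737 and 2049 ± 627 CPM, with a log2 fold change of -0.01 (SE 0.30, interval -0.67 to 0.65, edgeR FDR 0.999). Those of C1qc were 1145 ± 446 and 1099 ± 378 CPM, with a log2 fold change of -0.06 (SE 0.33, interval -0.77 to 0.65, edgeR FDR 0.989). The differences between groups were smaller than the spread between libraries, and the intervals still allow changes of about 0.65 on the log2 scale or more in both directions. The sign of each of these fold changes turned when single libraries were left out. Without the 2 Xist-containing libraries they were -0.20 for C1qa, -0.27 for C1qb and -0.31 for C1qc, and none was called.

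Within a library the chains kept similar proportions. Per exon length, C1qb made up 64.1% to 71.6% of the C1q RNA, C1qc 18.9% to 22.6% and C1qa 8.50% to 14.7%. C1qa varied most in relative terms, being lowest in sham 2 and highest in pMCAO 3. The summed C1q level nevertheless ranged from 1583 CPM in sham 5 to 5164 CPM in pMCAO 3. These ranges cover sham and pMCAO libraries alike.

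**Figure D3:**
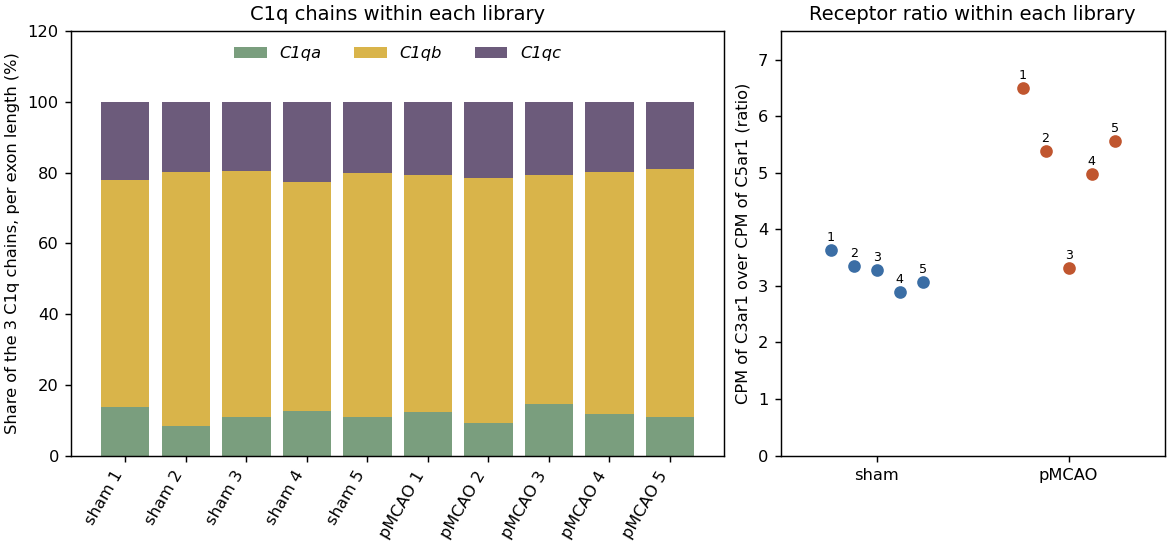
Left, the share of each C1q chain in the summed C1q RNA of a library (%, CPM per kb of exon). C1qb holds 64.1% to 71.6% in every library. Right, the ratio of C3ar1 to C5ar1 CPM in each library, numbered by replicate, with the sham libraries between 2.90 and 3.63 and 4 of 5 pMCAO libraries above them.

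C3, the central protein of the cascade, lies at chr17:57203970-57228136 (ENSMUSG00000024164, minus strand). It measured 57.4, 119.8, 141, 35.0 and 101 CPM in sham libraries 1 to 5 and 56.4, 41.4, 63.5, 58.3 and 50.2 CPM in pMCAO libraries 1 to 5. Sham 2, 3 and 5 stood above all pMCAO libraries, sham 1 lay among them, and sham 4 was the lowest of all 10, so the groups overlapped. All 5 pMCAO libraries were below the sham mean. The means were 90.7 ± 43.8 CPM in sham and 54.0 ± 8.47 CPM in pMCAO (SD, n = 5 each), and the log2 fold change was -0.75 (SE 0.32, 95% interval -1.44 to -0.06). The unadjusted edgeR p was 0.0363 and the FDR 0.922, so the difference was not called.

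The lower C3 mean kept its direction in 18 of 18 alternative fits, with log2 fold changes between -0.96 without sham 4 and -0.54 without sham 3. The unadjusted p was under 0.05 in 9 of the 18, and the lowest FDR was 0.682. Without the 2 Xist-containing libraries the log2 fold change was -0.74 (edgeR FDR 0.9995). The summed T cell markers, of which Cd4 made up 52.1%, varied with C3 over the 10 libraries (r = 0.66, rho = 0.59). Without the 2 libraries farthest from the median of the sum r was 0.49, and without the 2 Xist-containing libraries 0.68. For the macrophage sum r with C3 was 0.28 over all libraries, and 0.58 and 0.63 in the same checks. All 7 T cell markers had a lower pMCAO mean on the log2 scale and 0 were called. Their sum was 205 to 459 CPM in sham and 207 to 304 CPM in pMCAO, and none was at 0 in any library. In sham 4, Cd4 was at its highest of the 10 libraries (178.8 CPM). Cd3e, Cd3d, Cd3g, Cd8a and Lck were there at their lowest (0.818 to 3.52 CPM), so the T cell sum need not follow T cells alone. The mast cell markers listed were lower in 5 of 5 cases (median log2 fold change -1.64, 0 called), none was at 0, and their sum had r = 0.50 with C3 (rho = 0.38). The part of any of these cell types in the C3 difference was not tested.

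C4b encodes the C4 protein that is deposited after C1q binding. It lies at chr17:34728380-34743882 (ENSMUSG00000073418, minus strand), and 15.2% of its 100-base stretches also occur in the neighbouring paralogue C4a. Single reads from these stretches match both genes, and how they were counted was not given in the sources used here. C4b measured 13.6, 7.37, 15.4, 10 and 4.24 CPM in sham and 11.6, 6.69, 12.3, 35.4 and 7.10 CPM in pMCAO. Apart from pMCAO 4, which was more than 2 times as high as any other library, the values of both groups covered the same range. The log2 fold change was 0.53 (SE 0.49, 95% interval -0.54 to 1.60, edgeR FDR 0.925), and it was -0.12 without pMCAO 4 and -0.31 without pMCAO 4 and sham 5.

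In the alternative route, properdin (Cfp) stabilises the enzyme that cleaves C3, and factor B (Cfb) supplies its protease. Cfp lies at chrX:20925454-20931555 (ENSMUSG00000001128, minus strand). Cfp measured 146, 126, 159, 258 and 100.3 CPM in sham and 91.3, 103, 232, 115 and 118 CPM in pMCAO. Sham 4 and pMCAO 3 stood above the rest of their groups. The means were 158 ± 60.3 and 132 ± 56.9 CPM (SD, n = 5 each), with a log2 fold change of -0.26 (SE 0.30, 95% interval -0.91 to 0.39, edgeR FDR 0.941). Without pMCAO 3 the log2 fold change was -0.57 with an unadjusted edgeR p of 0.0431, and without sham 4 it was -0.02, so single libraries set its size.

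Cfb (ENSMUSG00000090231) lies at chr17:34856374-34862518 on the minus strand. Its counts were 15, 2, 21, 1 and 60 in sham libraries 1 to 5 and 1, 5, 17, 1 and 2 in pMCAO libraries 1 to 5. These correspond to 0.063 to 0.78 CPM in sham, with the lowest values in sham 2 and 4, and to 0.065 to 1.72 CPM in pMCAO, with the highest value in pMCAO 3. Cfb was below the filter on low counts and was not tested. Without the filter its log2 fold change was 0.04 (SE 1.10, 95% interval -2.35 to 2.43, edgeR FDR 0.999 over 17279 genes), so no difference was detectable at this depth. Of its exon bases 79.5% are also exon bases of Gm20547 on the same strand, a gene model not analysed here, and featureCounts by default leaves reads shared by overlapping genes uncounted. The setting used was not given in the sources used here, and the low level of Cfb is therefore uncertain.

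C3ar1 and C5ar1 encode the receptors for the C3a and C5a fragments. C3ar1 (ENSMUSG00000040552, chr6:122847138-122856161, minus strand) measured 433, 215, 447, 543 and 130.5 CPM in sham and 553, 395, 536, 595 and 237 CPM in pMCAO. C5ar1 (ENSMUSG00000049130, chr7:16246743-16259540, minus strand) measured 119, 64.2, 136, 187 and 42.4 CPM in sham and 85.0, 73.3, 162, 119.6 and 42.6 CPM in pMCAO. As for C1q, sham 2 and 5 and pMCAO 5 were low for both receptors, and the groups overlapped for both.

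The C3ar1 means were 354 ± 173 CPM in sham and 463 ± 147 CPM in pMCAO (SD, n = 5 each), with a log2 fold change of 0.39 (SE 0.37, 95% interval -0.41 to 1.19, edgeR FDR 0.925). It was positive under all 18 alternatives, from 0.07 without the 2 Xist-containing libraries to 0.59 without sham 4. The C5ar1 means were 109.9 ± 57.9 and 96.4 ± 45.7 CPM, with a log2 fold change of -0.19 (SE 0.41, interval -1.08 to 0.70, edgeR FDR 0.970), which turned to 0.08 without sham 4 and was -0.49 without the 2 Xist-containing libraries.

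The ratio of the receptors varied less than either level. C3ar1 CPM over C5ar1 CPM was 3.63, 3.34, 3.28, 2.90 and 3.07 in sham libraries 1 to 5 and 6.50, 5.39, 3.32, 4.97 and 5.56 in pMCAO libraries 1 to 5. Libraries 1, 2, 4 and 5 of the pMCAO group lay above every sham library, and pMCAO 3 lay among them. The log2 ratio was on average 0.64 higher in pMCAO, 0.62 without the 2 Xist-containing libraries, 0.58 without the pooled libraries and between 0.54 and 0.79 when 1 library was left out. This pair had the largest difference relative to its spread among the 28 pairs of the 8 genes. In 0 of the 28 did the groups separate fully. The pairs ranked 2 to 6 also held C3ar1, with C1qc, C1qb, Cfp, C1qa and C3. In each of them C3ar1 was on average relatively higher in pMCAO, so the shift was not particular to the receptors. The pair of C3ar1 and C4b ranked 27. The pair of C3ar1 and C5ar1 was singled out after its values were seen, so the difference is given with no test.

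**Figure D4:**
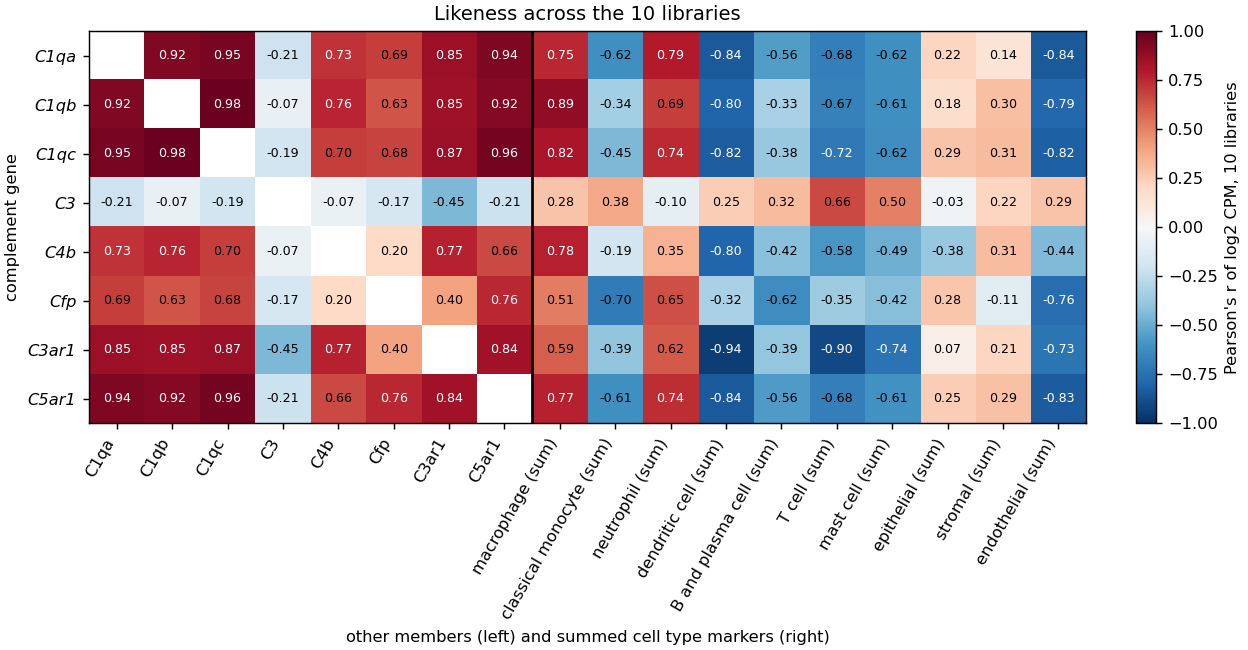
Pearson's r of log2 CPM over the 10 libraries between the 8 complement genes tested (left of the line) and with the summed level of each cell type's markers (right), on a colour scale from -1 to 1. The C1q genes and C5ar1 form a block with r of 0.92 to 0.98, and the row of C3 is pale or negative against all other members.

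The C1q genes and both receptors varied together across the 10 libraries, C4b and Cfp followed them less closely, and C3 did not. These correlations describe libraries that also share depth, sorting and cell makeup, and carry no test. C1qb and C1qc had r = 0.98 (rho = 0.90), and without the 2 Xist-containing libraries r was 0.97. C1qa had r = 0.95 with C1qc and 0.92 with C1qb. By rank, C1qa and C1qc were the closest pair (rho = 0.99), and without the 2 libraries farthest from the median their r was 0.95, against 0.93 for C1qb and C1qc. C5ar1 followed C1qc with r = 0.96 and C3ar1 followed it with r = 0.87. Cfp had r of 0.63 to 0.76 with the C1q genes and C5ar1, but 0.40 with C3ar1 (rho = 0.16) and 0.20 with C4b. C3 had r between -0.45 and -0.07 with the other 7 genes, and without the 2 Xist-containing libraries it was between -0.32 with C3ar1 and 0.33 with C4b.

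Marker sums of other cells differed in direction against the receptors and C1q. Csf3r made up 95.1% of the neutrophil sum, from the 3 of 6 markers in the table, and S100a8 and Retnlg were at 0 in some libraries. That sum, which is thus mostly Csf3r, had r of 0.62 to 0.79 with the C1q genes, C3ar1 and C5ar1. The epithelial and stromal sums had 0.07 to 0.31. The sums of the other 6 cell types beside macrophages had negative r with these 5 genes. The sum of the 7 dendritic cell markers was 202 to 549 CPM in sham and 150.0 to 542 CPM in pMCAO, with no marker at 0, and had r = -0.94 with C3ar1 (rho = -0.96) and r = -0.80 with C1qb. The T cell sum, of which Cd4 made up 52.1%, had r = -0.90 with C3ar1. The macrophage sum, of which Lyz2 made up 70.1%, had r = 0.89 with C1qb and 0.59 with C3ar1. Without the 2 Xist-containing libraries these were 0.88 and 0.28, and the macrophage sum's r with C3ar1 was 0.04 without the 2 libraries farthest from its median. Sham 2 and 5 and pMCAO 2 and 5 were lowest in C1q and receptor RNA and held the most dendritic cell marker RNA. In sham 5, Itgae alone was 297 of 549 CPM. The lowest dendritic cell sum, 150 CPM, was in pMCAO 1, where the summed C1q level was 3057 CPM. The part of cell makeup in the members' levels was not tested.

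Among all genes tested, C1qc was the gene most like C1qb. P2ry6, a nucleotide receptor, and Fcgr3, an Fc receptor for IgG, came next at r = 0.96 each. C1qc itself was most like Cpq (r = 0.98), a carboxypeptidase that was also the nearest gene to C5ar1 (r = 0.98), followed by C1qb and Cgrrf1. C1qa was most like Rin2, Cpq and Mapre3 (r = 0.95 to 0.96), and C5ar1 had Rin2 and Irf2bp2 after Cpq. C3ar1 was nearest to Aoah, an enzyme that inactivates bacterial lipopolysaccharide, at r = 0.99, and then to the terminal complement gene C6 at r = 0.97 and Arhgef12. C4b was nearest to Reps2, Ms4a6b and the macrophage marker Adgre1 (r = 0.95 each). Cfp was nearest to Rn7sk and Rpph1, which are short non-coding RNAs, and Fam114a1 (r = 0.94 to 0.99). C3 was nearest to Sepw1 (r = 0.97), Emc3 and Ptpn1, and only 2 genes reached an r of 0.9 with it, against 48 to 74 for the C1q genes and receptors.

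Of 39 other complement genes considered, 19 were in the table and all 19 were tested. None was called by edgeR, as for all genes, and 1 had an unadjusted p under 0.05, where 4.71% of all 16949 genes did. A higher mean on the log2 scale was found for 14 and a lower for 5, against 8367 and 8582 of all genes. C1s1, C4bp, Vsig4 and Cd59a among the higher and C4a, C8g and Serping1 among the lower never exceeded 7.98 CPM. The median log2 fold change of the 19 was 0.24 against -0.01 for all genes. C1rb, C1s2, Mbl1, Mbl2, Masp1, Masp2, Fcnb, Colec10, Colec11, Cfd, Hc, C7, C8a, C8b, C9, Cfi, Cd55b, Cd59b, Clu and Vtn were not analysed here.

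Among the regulators, Cd46, a cofactor for C3b cleavage, measured 3.94, 4.07, 5.67, 3.58 and 8.58 CPM in sham and 8.94, 5.56, 5.36, 19.0 and 11.9 CPM in pMCAO. All 5 pMCAO libraries were above the sham mean, yet the groups overlapped. The log2 fold change was 0.97 (SE 0.41, 95% interval 0.07 to 1.87), with an unadjusted edgeR p of 0.037 and an FDR of 0.922. Without pMCAO 4, which had the highest Cd46 level, the log2 fold change was 0.61. The unadjusted p was under 0.05 in 8 of 18 alternatives.

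None of the other regulators passed the test, and their intervals included 0. Cr1l had a log2 fold change of 0.21 (SE 0.16), Cd55 of -0.19 (SE 0.56) and the C1 inhibitor gene Serping1 of -0.81 (SE 0.56). Without the 2 Xist-containing libraries these were 0.09, 0.15 and -1.20. Cd59a, which blocks the membrane attack complex, had 2.19 (SE 1.13) at levels of 0 to 7.98 CPM.

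None of the receptors outside the 9 genes passed the test. The integrin chains Itgam, Itgax and Itgb2, which form complement receptors 3 and 4, had log2 fold changes of 0.17 (SE 0.24), 0.32 (SE 0.23) and -0.08 (SE 0.13), and Itgb2 had the narrowest interval of the complement genes, from -0.35 to 0.20. C5ar2, the second C5a receptor, had 0.14 (SE 0.29), and Cr2, a complement receptor found on B cells, had 0.07 (SE 0.75). Vsig4, a C3b receptor of resident macrophages, had 1.68 (SE 1.02) at 0.091 to 3.28 CPM, and its value ran from 0.78 without the 2 Xist-containing libraries to 2.62 without sham 1 and 2.90 without the pooled libraries. Leaving out the 2 Xist-containing libraries gave 0.60 for Itgax, 0.04 for Itgam and 0.49 for Cr2, and none of them was called. The initiating genes C1ra, C1s1, C2, C4a and Fcna, the terminal gene C8g and the regulator C4bp were between 0 and 24.2 CPM in all libraries. C6 ranged from 62.6 to 296 CPM with a log2 fold change of 0.30 (SE 0.39), which was 0.05 without the 2 Xist-containing libraries.

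**Figure D5:**
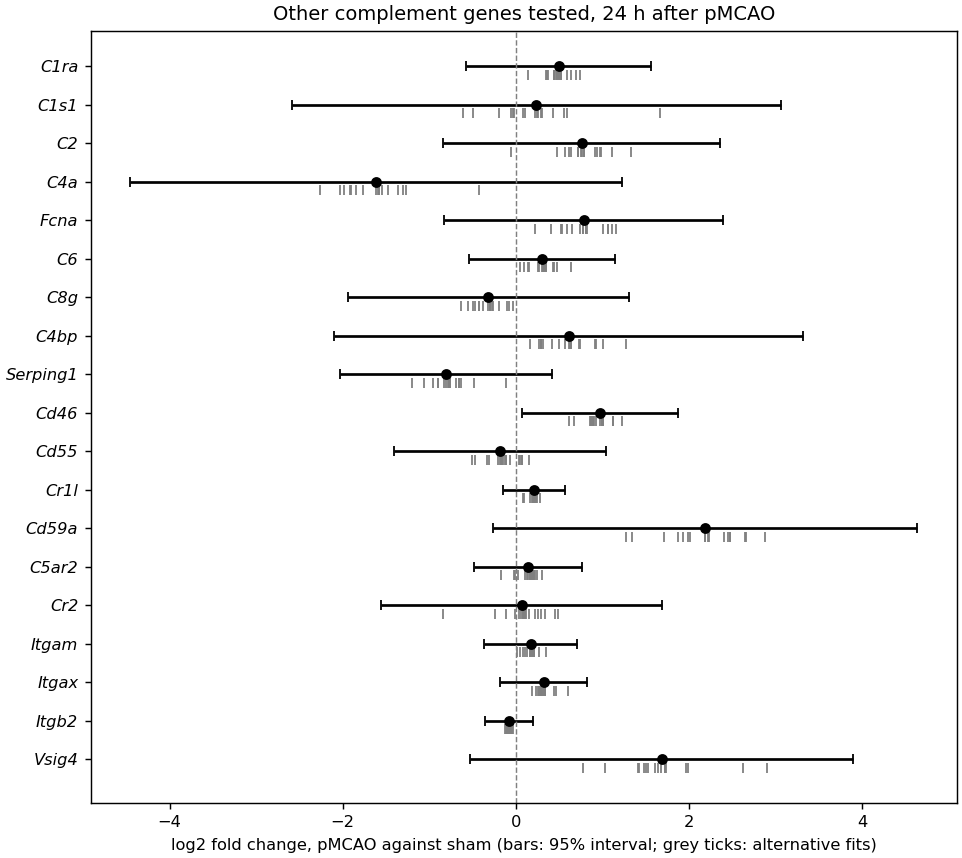
Log2 fold change of pMCAO against sham for the 19 other complement genes tested (x axis, log2 scale), with 95% intervals as bars and alternative fits as grey ticks. Cd46 alone has an interval that leaves out 0, at 0.07 to 1.87 before adjustment, and genes of low counts such as C4a and C1s1 have the widest intervals.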

How the data were processed

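The values used are raw counts of each gene in each library, deposited as whole numbers. Per the labels, reads were aligned with STAR to GRCm38 (mm10) and counted with featureCounts, from 2.0 ng of total RNA per library after removal of ribosomal RNA. Tool versions, annotation and strandedness were not given in the sources used here. Each listed gene had at least 10 counts in at least 2 libraries. The deposited CPM columns and the authors' own comparison (log2 fold change, mean expression, p-value and FDR) were not used.

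Counts were filtered with filterByExpr (16949 genes kept), scaled by TMM and compared with edgeR 4.0.16 (R 4.3.3, glmQLFit and glmQLFTest, no covariate), with Benjamini-Hochberg adjustment over all genes tested and calls at an FDR of 0.05 or less. Levels are CPM on TMM-scaled library sizes, and correlations used log2 CPM with a prior count of 2. Exon lengths and positions are from GENCODE M21. Scripts were tested on simulated data.

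A further complement gene is not reported here. All 9 members are named, with the 3 most similar genes for each, and the members, lists and alternatives were chosen with earlier results of these data known. Alternatives were DESeq2 1.42.0, limma-voom (limma 3.58.1), 2 other scalings, no filter, a replicate block and libraries left out, and those for ratios, correlations and other complement genes were added after seeing the data. No batch was given in the labels beside the pooled names. No 2 libraries agreed within sampling noise.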

Additional observations from a re-analysis of the deposited data

Results flagged for a closer look

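In 2 of 74 groups of 5 libraries, 1 library stood apart from the other 4 on the log2 CPM scale by more than the limit of 0.71 for its gap over the range of the group, where chance sets apart about 1 in 20 groups, or 3.7. For Cfp, pMCAO 3 was the highest of its group with a value of 0.722 (232 CPM, the next being 118 CPM). For C8g, a terminal component gene of low level, sham 4 was the lowest with 0.841 (0.189 CPM, the next being 0.720 CPM).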

How the results depend on the processing

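For the 8 members tested, 18 alternatives gave 144 log2 fold changes, of which 119 kept their sign, 25 in 5 genes turned it, and 0 were called. Leaving out 1 library at a time gave -0.27 to 0.21 for C1qa, -0.20 to 0.13 for C1qb, -0.26 to 0.088 for C1qc, -0.12 to 0.73 for C4b and -0.46 to 0.081 for C5ar1. C1qb was also 0.013 with DESeq2 and with its size factors, 0.019 with limma-voom and 0.018 with upper-quartile scaling. Without both pooled libraries C1qb was 0.095 and C1qc 0.089, and without the 2 Xist-containing libraries C1qa was -0.20 and C4b -0.31.

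For the 19 other complement genes, 321 of 340 values kept their sign and 0 were called. Leaving out 1 library gave -0.50 to 1.67 for C1s1, -0.061 to 1.11 for C2, -0.51 to 0.074 for Cd55, -0.021 to 0.31 for C5ar2 and -0.84 to 0.45 for Cr2. C1s1 was -0.62 and Cd55 0.053 with limma-voom. Without the 2 Xist-containing libraries Cd55 was 0.15 and C5ar2 -0.17. The cause was not tested.

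Across all genes DESeq2 called 3 (1011 with an unadjusted p under 0.05) and every other alternative 0, and among the members and other complement genes every tool called 0. With the replicate block 0 genes were called (1303 with an unadjusted p under 0.05), C1qb was 0.028, C1s1 -0.19 and the unadjusted p of C3ar1 was 0.0113. After each group's mean log2 CPM was taken off, same-numbered libraries of the 2 groups correlated at -0.01 to 0.37. For 2 of 5 sham libraries the most similar pMCAO library had the same number, so the numbers were not taken to pair the samples. Depth limits Cfb, with 1 to 60 counts per library, and C1s1, C4a and C4bp, each at 0 counts in 2 libraries.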

Other observations

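Relative to Csf1r, the growth factor receptor of macrophages, the summed C1q RNA was lower in most pMCAO libraries. The ratio of C1q CPM to Csf1r CPM was 3.86, 3.21, 3.42, 3.54 and 2.92 in sham libraries 1 to 5 and 2.54, 2.47, 3.38, 2.48 and 2.69 in pMCAO libraries 1 to 5. All pMCAO libraries except pMCAO 3 lay below every sham library, and pMCAO 3 lay among them, as it did for the ratio of C3ar1 to C5ar1. C3 over Csf1r was 0.051, 0.136, 0.102, 0.029 and 0.186 in sham and 0.047, 0.034, 0.042, 0.035 and 0.063 in pMCAO, with overlap through sham 1 and 4. Csf1r itself had a log2 fold change of 0.32 (SE 0.27), while Lyz2 had -0.32 (SE 0.26). Of the 9 macrophage markers 6 had a higher and 3 a lower pMCAO mean on the log2 scale, so such ratios depend on the marker chosen. These ratios were chosen with the values known and carry no test.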
